A study of Mus musculus with 7 samples.

Results

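The 10 genes described here encode RNA-binding proteins of the nervous system: the Musashi proteins (Msi1, Msi2), the polypyrimidine tract-binding proteins (Ptbp1, Ptbp2), the neuronal Hu proteins (Elavl2, Elavl3, Elavl4) and the Rbfox proteins (Rbfox1, Rbfox2, Rbfox3). They were chosen by name, as 10 of 18193 genes on the array, and every probe set (a group of probes read as 1 signal) that the platform annotation assigns to exactly 1 of them was taken. Msi1, Msi2 and Ptbp1 form the progenitor class, and Ptbp2, the Hu genes and the Rbfox genes form the neuronal class. Expression arrays were run on granule neuron precursors, whose division supplies the granule neurons of the cerebellum, freshly isolated from mice of the genotype Math1-Cre/Ptc-loxp/Nestin-CFP. Math1-Cre acts in the granule lineage and removes Ptch1, a brake on Hedgehog signalling, and Nestin-CFP is a fluorescent reporter of Nestin regulatory sequence by which cells were sorted. The groups were Nestin-positive cells (4 arrays, replicates 1, 3, 4 and 5) and Nestin-negative cells (3 arrays, replicates 1, 4 and 5), and all 7 samples carry the same alleles. The sample labels give postnatal day 7 and medulloblastoma as tissue, postnatal day 4 stands in the series text, and the data do not settle which applies. The labels do not state separate animals, so p-values measure the spread between these samples, which may be technical, and the number of arrays limits precision.

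Musashi proteins bind mRNAs of neural stem and progenitor cells and control their translation. Ptbp1 represses neuronal exons in cells that are not neurons. During neuronal differentiation it gives way to its paralog Ptbp2, and the microRNA miR-124 is known to repress Ptbp1. Hu proteins bind AU-rich and U-rich sequence and stabilise or splice neuronal transcripts, and Rbfox proteins bind UGCAUG in introns to set neuronal exon choice. Rbfox3 is the antigen known as NeuN, a marker of mature neurons.

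Nes itself, which checks the sort, averaged 643 ± 161 in Nestin-positive cells (SD over 4 arrays) and 190.3 ± 23.5 in Nestin-negative cells (SD over 3 arrays). Of 12 precursor markers 11 were measured, that is, at or above the array median on at least 3 arrays. These 11, Atoh1 and Mki67 among them, lay at or above it on all 7 arrays. So did all 14 measured markers of differentiating granule neurons and all 6 of the oligodendrocyte lineage. The levels therefore do not check the labelled cell type. Of 11081 genes tested with limma (two-sided, Benjamini-Hochberg adjustment, threshold 0.05), 19 rose and 64 fell in Nestin-positive cells, and the median log2 change over all genes was -0.03. With the replicate number as a block, which compares replicates 1, 4 and 5 within pairs, 397 were higher and 709 lower. In these bulk samples, fewer cells of a type and less RNA per cell cannot be told apart.

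Elavl3, Elavl4, Rbfox1 and Rbfox2 had lower signals on every Nestin-positive array than on any Nestin-negative array, while Elavl2, Rbfox3, Ptbp2 and the progenitor genes overlapped between the fractions. None of the 10 members passed the test over all 7 arrays (0 of 10, where 0.749% of all genes passed, 0.578% lower and 0.171% higher). At an unadjusted p under 0.05 there were 4 members, all lower, where 9.10% of all genes were lower at that level. Non-overlapping and lower groups occurred in 4 of 10 members and in 9.11% of all genes, and non-overlapping and higher ones in 0 members and 5.87% of all genes (15.0% in either direction). With the replicate block, the same 4 genes fell (limma, adjusted p between 0.0048 and 0.0086), where 6.40% of all genes were called lower, and no member rose, where 3.58% of all genes did (9.98% called in either direction). At an unadjusted p under 0.05, these 4 were the members lower with the block, against 13.0% of all genes. Ptbp1 was the 1 member higher at that level with the block (limma, unadjusted p = 0.0186), where 1015 of 11081 genes were higher. The call of the 4 lower genes thus rests on the pairing of replicate numbers, which was inferred from these data.

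**Figure D1:**
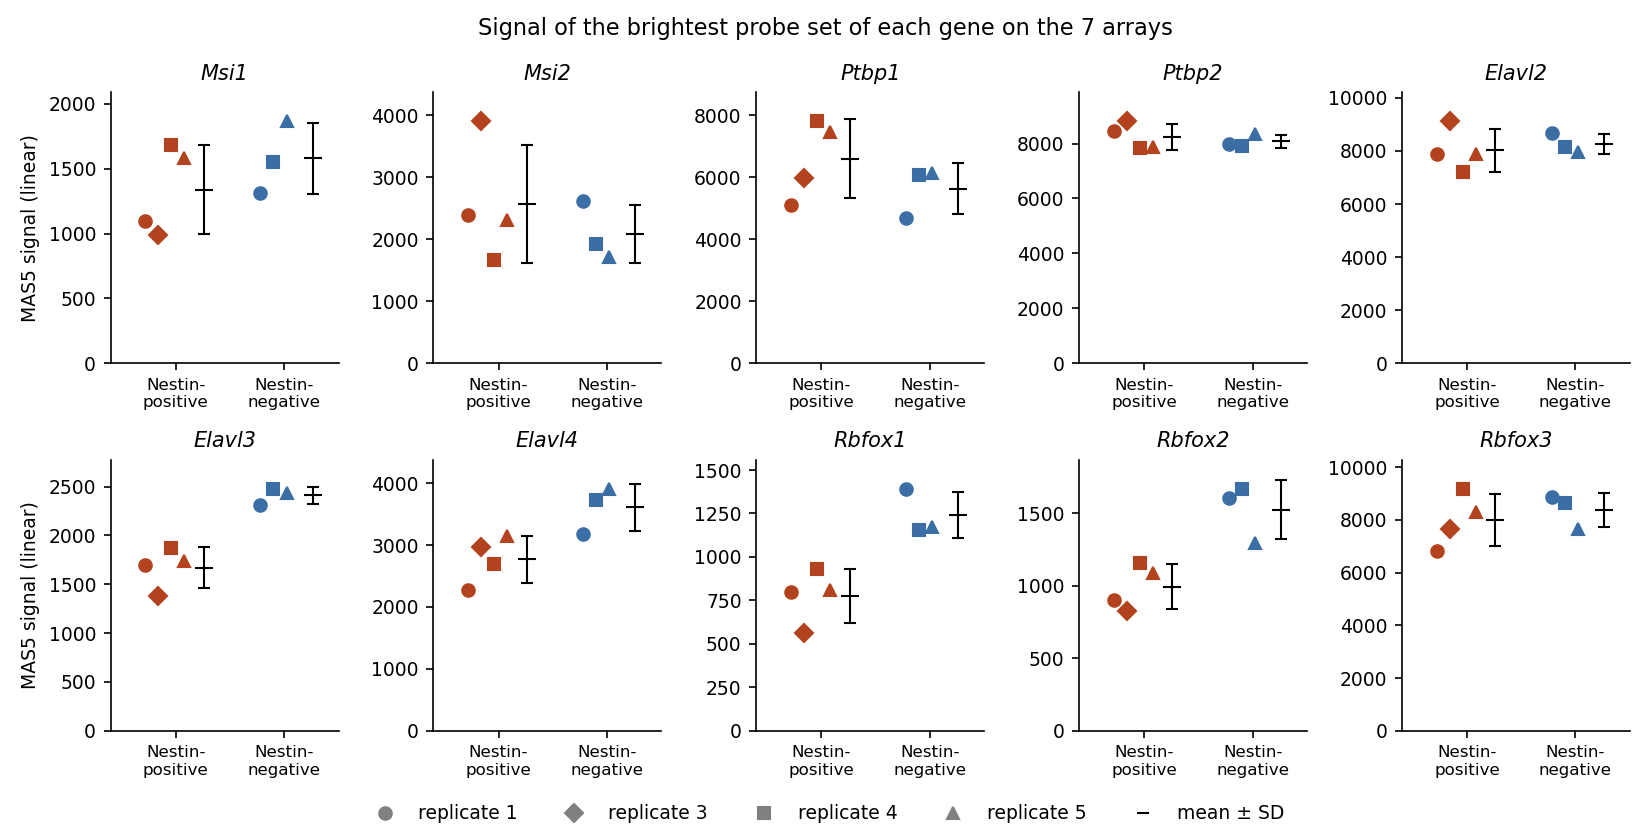
MAS5 signal (linear scale) of the brightest probe set of each of the 10 genes; each point is 1 array, its shape gives the replicate number, and the black bar is the mean ± SD of 4 Nestin-positive and 3 Nestin-negative arrays. For Elavl3, Elavl4, Rbfox1 and Rbfox2 all Nestin-positive points lie below all Nestin-negative points, and for the other 6 genes the groups overlap.

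Msi1, the founding mammalian Musashi, had signals of 1099, 991, 1681 and 1582 on Nestin-positive replicates 1, 3, 4 and 5, against 1316, 1553 and 1867 on Nestin-negative replicates 1, 4 and 5. The groups overlapped, with the lowest values on Nestin-positive replicates 3 and 1 and the highest on Nestin-negative replicate 5. For Msi1 this gave a log2 change of -0.26 ± 0.21 (SE; limma, adjusted p = 0.632), with a 95% interval of -0.73 to 0.20. A dimmer Msi1 probe set differed by 0.33 in the opposite direction, also with overlapping groups, so the probe sets give no common sign. The third Msi1 probe set was below the median of all 7 arrays and was not tested.

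Msi2, the paralog of Msi1, had signals of 2389, 3905, 1669 and 2309 on Nestin-positive replicates 1, 3, 4 and 5, against 2614, 1929 and 1708 on Nestin-negative replicates 1, 4 and 5. The spread within the Nestin-positive group, from 1669 on replicate 4 to 3905 on replicate 3, covered the whole Nestin-negative range. Over all arrays Msi2 differed by 0.26 ± 0.26 on the log2 scale (SE, adjusted p = 0.711), and 0.03 ± 0.12 (SE) with the replicate block, where replicate 3 does not contribute. Over its 7 kept probe sets the log2 change ran from -0.14 to 0.28, and 1 of the 7 was below 0.

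Ptbp1 had signals of 5093, 5985, 7810.3 and 7471 on Nestin-positive replicates 1, 3, 4 and 5, against 4698, 6077 and 6129.6 on Nestin-negative replicates 1, 4 and 5. The groups overlapped, and in all 3 pairs of same-numbered samples the Nestin-positive one was higher, by 0.12, 0.36 and 0.29 on the log2 scale for replicates 1, 4 and 5. The log2 change was 0.22 ± 0.17 (SE, adjusted p = 0.624) over all arrays and 0.25 ± 0.10 (SE, adjusted p = 0.120) with the block, so neither fit called it. Its 2 dimmer probe sets had log2 changes of 0.08 and -0.01.

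Ptbp2, the neuronal paralog, had signals of 8465, 8817, 7843 and 7858 on Nestin-positive replicates 1, 3, 4 and 5, against 7969, 7905 and 8349 on Nestin-negative replicates 1, 4 and 5. These values interleaved, and the log2 change was 0.03 ± 0.09 (SE, adjusted p = 0.922, 95% interval -0.18 to 0.24). A much dimmer Ptbp2 probe set averaged 378 ± 60.3 in Nestin-positive cells (SD over 4 arrays) and 547 ± 165 in Nestin-negative cells (SD over 3 arrays). Its log2 change of -0.49 was not called (limma over probe sets, adjusted p = 0.601, and 0.282 with the block), and its groups overlapped through Nestin-negative replicate 5. Without pair 5 the blocked fit called this probe set.

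Among the Hu genes, Elavl2 (HuB) had signals of 7877, 9128, 7213 and 7874 on Nestin-positive replicates 1, 3, 4 and 5, against 8696, 8151 and 7952 on Nestin-negative replicates 1, 4 and 5. The highest and the lowest value both came from Nestin-positive arrays. The log2 change was -0.05 ± 0.11 (SE, adjusted p = 0.881), with a 95% interval of -0.29 to 0.19, and its 4 kept probe sets lay between -0.06 and 0.07.

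Elavl3 (HuC), a Hu protein found in neurons from soon after they leave the cell cycle, had signals of 1697, 1376, 1876 and 1736 on Nestin-positive replicates 1, 3, 4 and 5, against 2309, 2480.3 and 2439 on Nestin-negative replicates 1, 4 and 5. Every Nestin-positive array lay below every Nestin-negative one, with replicate 3 lowest. Elavl3 averaged 1671 ± 211 in Nestin-positive cells (SD over 4 arrays) and 2409 ± 89.1 in Nestin-negative cells (SD over 3 arrays), a log2 change of -0.54 ± 0.13 (SE; limma, adjusted p = 0.0934). With the replicate block Elavl3 fell by 0.45 ± 0.10 on the log2 scale (SE, adjusted p = 0.0070), and the 3 pair differences were -0.44, -0.40 and -0.49 for replicates 1, 4 and 5. All 3 of its probe sets had non-overlapping groups, with log2 changes from -0.65 to -0.54.

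Elavl4 (HuD), known for stabilising mRNAs of axon growth such as Gap43, had signals of 2266, 2966, 2695 and 3146 on Nestin-positive replicates 1, 3, 4 and 5, against 3185, 3730.2 and 3912 on Nestin-negative replicates 1, 4 and 5. The groups did not overlap, but Nestin-positive replicate 5 came within a small margin of Nestin-negative replicate 1. The log2 change was -0.39 ± 0.14 (SE, adjusted p = 0.234), and with the replicate block Elavl4 fell by 0.42 ± 0.10 (SE, adjusted p = 0.0086). Its 3 probe sets, none with overlapping groups, had log2 changes from -0.50 to -0.34. Whether Elavl2 differs from Elavl3 and Elavl4 in its change was not tested.

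Rbfox1, a splicing regulator of neurons and muscle, had signals of 798, 565, 933 and 809 on Nestin-positive replicates 1, 3, 4 and 5, against 1393, 1155 and 1174 on Nestin-negative replicates 1, 4 and 5. The highest Nestin-positive value, on replicate 4, stayed below the lowest Nestin-negative value, also on replicate 4. Rbfox1 thus differed by a log2 change of -0.70 ± 0.18 (SE, adjusted p = 0.104), and with the replicate block Rbfox1 fell by 0.55 ± 0.12 (SE, adjusted p = 0.0048). All 3 kept probe sets of Rbfox1 had non-overlapping groups, and their log2 changes ran from -0.82 to -0.54. The fourth, whose probes may also match other transcripts, was below the array median on every array.

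Rbfox2, the more widely expressed member of the family, had signals of 902, 823, 1154 and 1089.5 on Nestin-positive replicates 1, 3, 4 and 5, against 1609, 1671 and 1295 on Nestin-negative replicates 1, 4 and 5. The groups did not overlap, with Nestin-negative replicate 5 nearest to the Nestin-positive arrays. Rbfox2 had a log2 change of -0.62 ± 0.16 (SE, adjusted p = 0.104), and with the replicate block Rbfox2 fell by 0.54 ± 0.12 (SE, adjusted p = 0.0056). Its 3 dimmer probe sets had overlapping groups and log2 changes of -0.52, -0.45 and -0.41, so 1 of its 4 probe sets carries the separation.

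Rbfox3 had signals of 6831, 7661, 9192 and 8298 on Nestin-positive replicates 1, 3, 4 and 5, against 8882, 8641 and 7655 on Nestin-negative replicates 1, 4 and 5. The lowest and the highest value were both Nestin-positive. The log2 change was -0.08 ± 0.12 (SE, adjusted p = 0.83, 95% interval -0.35 to 0.20), and its 3 probe sets lay between -0.08 and 0.00. In the pairs it was lower by 0.38 for replicate 1 and higher by 0.09 and 0.12 for replicates 4 and 5. Whether Rbfox3 differs from Rbfox1 and Rbfox2 in its change was not tested.

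**Figure D2:**
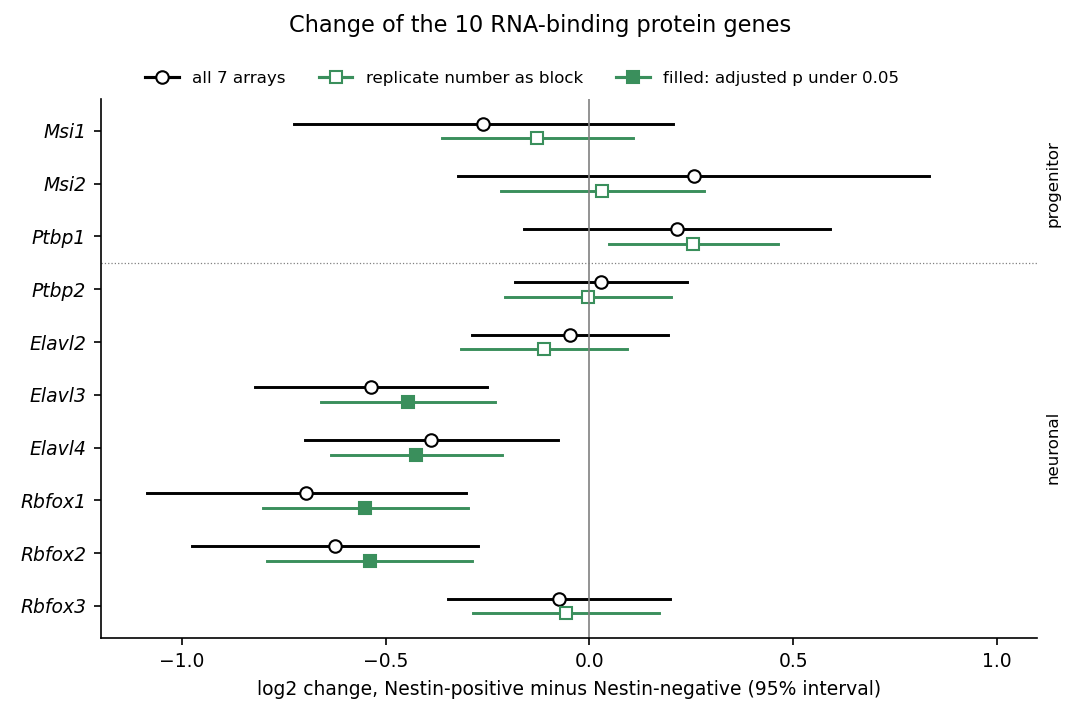
Log2 change (Nestin-positive minus Nestin-negative) of the 10 genes with its 95% interval, from the fit over all 7 arrays (black circles) and from the fit blocked on replicate number (green squares); filled symbols have an adjusted p under 0.05. Only the blocked values of Elavl3, Elavl4, Rbfox1 and Rbfox2 are filled, between -0.55 and -0.42.

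With the block, leaving out 1 pair at a time kept the call of Elavl4 in 3 of 3 fits (adjusted p between 0.0100 and 0.0425). Elavl3, Rbfox1 and Rbfox2 kept theirs in 2 of 3, with the lost call at 0.0583 for Elavl3 without pair 5, and at 0.0764 for Rbfox1 and 0.0989 for Rbfox2 without pair 1.

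Of 38 probe sets of the 10 genes, 34 passed the filter on dim signal, 12 of the progenitor and 22 of the neuronal class. At this level limma called 0 of the 34 and 0.00% of all 23558 probe sets over all 7 arrays, while 10 of the 34 had an unadjusted p under 0.05, all neuronal and lower (5.82% of all probe sets were lower at that level). The groups did not overlap in 10 neuronal probe sets, all lower, in Elavl3 (3), Elavl4 (3), Rbfox1 (3) and Rbfox2 (1), against 6.68% of all probe sets. No member probe set had non-overlapping and higher groups, against 4.67% of all. With the block 7 of the 34 fell, where 3.01% of all probe sets did, and 0 rose, where 1.26% did (4.26% in either direction). Probe sets of a gene share its transcripts and are not replicates.

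**Figure D3:**
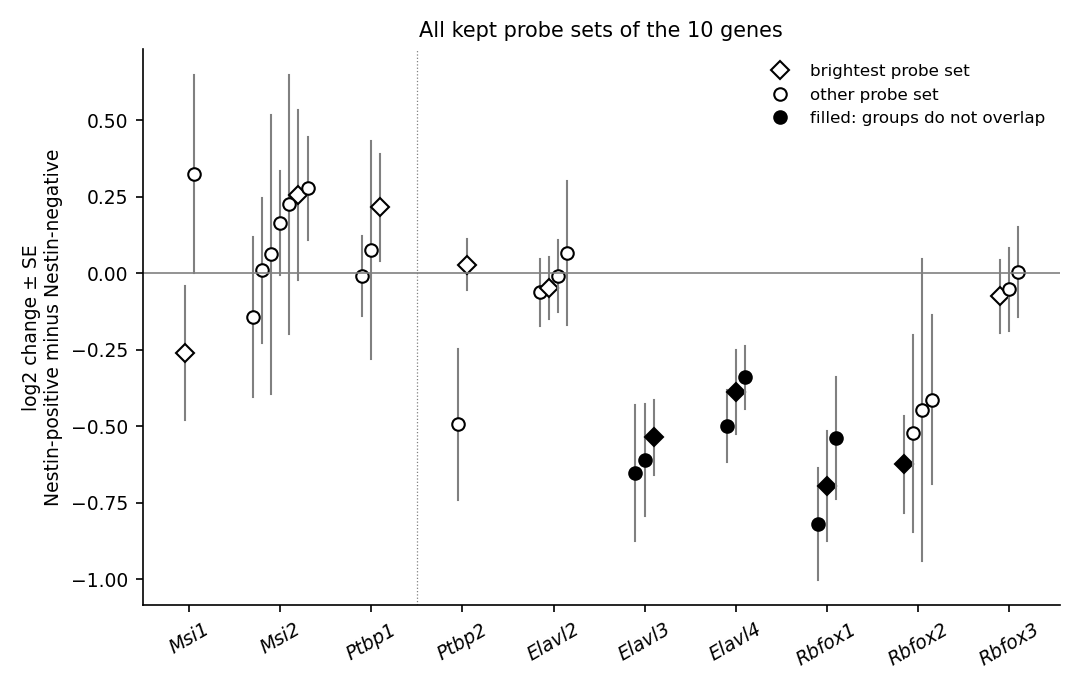
Log2 change ± SE (Nestin-positive minus Nestin-negative) of the 34 kept probe sets, by gene, with the dotted line between progenitor and neuronal genes; diamonds mark the brightest probe set of a gene, and filled symbols mark groups that do not overlap. The 10 filled symbols belong to Elavl3, Elavl4, Rbfox1 and Rbfox2 and all lie below 0.

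Between the classes, the 7 neuronal genes had a median log2 change of -0.39, from -0.70 to 0.03, and the 3 progenitor genes a median of 0.22, from -0.26 to 0.26. The difference of these medians was -0.60 over all arrays and -0.46 with the replicate block, and it carries no test. Relative to each gene's own mean over the 7 arrays, the neuronal genes averaged -0.22, -0.23, -0.05 and -0.08 on Nestin-positive replicates 1, 3, 4 and 5, against 0.21, 0.21 and 0.15 on Nestin-negative replicates 1, 4 and 5. The progenitor genes averaged -0.18, 0.08, 0.06 and 0.16 on the same Nestin-positive arrays, against -0.09, -0.03 and 0.00 on the Nestin-negative ones. The neuronal average thus separated the fractions and the progenitor average did not. The class names describe the 10 genes in part: of the 7 neuronal genes, Ptbp2, Elavl2 and Rbfox3 had log2 changes within 0.08 of 0.

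**Figure D4:**
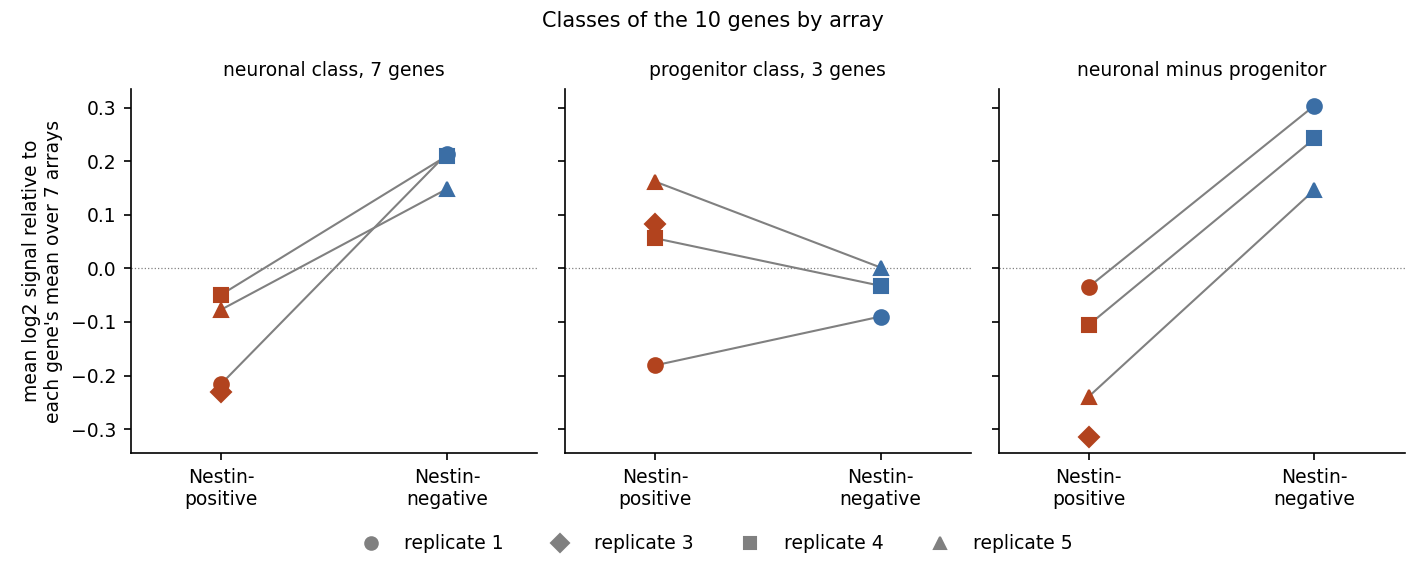
Mean log2 signal of the 7 neuronal genes, of the 3 progenitor genes and their difference on each array, relative to each gene's mean over the 7 arrays; lines join same-numbered samples. Neuronal values are below 0 on all 4 Nestin-positive and above 0 on all 3 Nestin-negative arrays, and progenitor values overlap.

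RefSeq promoter windows on GRCm38.p6, from 250 bases before to 50 after a transcript start, were given for 8 of the 10 genes, 19 windows in all, some overlapping. They were searched for CAGCTG, a form of the E-box that proneural transcription factors such as Atoh1 and Neurod1 bind and that reads the same on both strands. The motif was in 4 of 7 windows of Elavl3, Elavl4 and Rbfox1, in 4 of 12 windows of the other 5 genes, and in 16.3% of all 32851 windows. Among the other 5 genes the windows with the motif belong to Ptbp1 and Elavl2, neither of which was called, and those of Elavl2 are not shown. In Elavl4 and in Elavl2, overlapping windows hold the same site, so these counts exceed the number of sites. The windows shown were picked because they hold the motif, in the 3 genes with a window among the 4 that fell with the block and in Ptbp1, which was not called. The most upstream windows of Elavl4 and Rbfox1 hold none. Capitals mark the motif, whose first base lies 43, 46 and 72 bases before the start site in Elavl3, Elavl4 and Rbfox1, and 39 bases after it in Ptbp1. A match describes these letters and does not show a bound site.
Elavl3, chr9:22051974-22052273, minus strand: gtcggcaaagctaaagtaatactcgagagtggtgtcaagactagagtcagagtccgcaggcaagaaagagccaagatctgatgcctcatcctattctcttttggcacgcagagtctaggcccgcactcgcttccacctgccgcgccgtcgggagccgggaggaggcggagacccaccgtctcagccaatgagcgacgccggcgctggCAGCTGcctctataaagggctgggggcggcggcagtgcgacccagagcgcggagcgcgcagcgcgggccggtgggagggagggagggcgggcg
Elavl4, chr4:110287478-110287777, minus strand: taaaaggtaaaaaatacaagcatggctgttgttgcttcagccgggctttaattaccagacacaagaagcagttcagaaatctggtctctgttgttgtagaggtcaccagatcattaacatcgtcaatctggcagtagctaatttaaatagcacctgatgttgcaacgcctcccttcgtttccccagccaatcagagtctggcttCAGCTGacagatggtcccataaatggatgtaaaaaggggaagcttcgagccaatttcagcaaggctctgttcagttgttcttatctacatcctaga
Rbfox1, chr16:7069585-7069884, plus strand: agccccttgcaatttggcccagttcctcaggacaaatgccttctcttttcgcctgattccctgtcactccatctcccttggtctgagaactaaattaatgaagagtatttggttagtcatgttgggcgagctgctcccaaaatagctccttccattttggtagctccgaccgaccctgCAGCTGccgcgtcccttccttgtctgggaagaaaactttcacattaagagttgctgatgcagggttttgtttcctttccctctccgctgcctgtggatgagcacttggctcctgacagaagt
Ptbp1, chr10:79854182-79854481, plus strand: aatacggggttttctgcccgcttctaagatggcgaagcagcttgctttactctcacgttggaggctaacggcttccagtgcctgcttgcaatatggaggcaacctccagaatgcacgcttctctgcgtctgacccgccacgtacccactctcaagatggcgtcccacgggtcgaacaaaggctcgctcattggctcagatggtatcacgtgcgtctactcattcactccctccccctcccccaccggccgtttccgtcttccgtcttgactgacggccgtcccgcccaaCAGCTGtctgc

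Other RNA-binding proteins of neural tissue were examined as a list of 45 genes, 39 of them measured. Over all 7 arrays 3 of the 39 fell and 0 rose, where 0.578% of all genes fell and 0.171% rose, and the list median was -0.04, close to that of all genes. The 3 were the CELF splicing factors Celf4 and Celf5 and the translation regulator Cpeb2, a cytoplasmic polyadenylation element-binding protein. Celf4 had signals of 1083, 719.6, 913 and 1088 on Nestin-positive replicates 1, 3, 4 and 5, against 2120.03, 1994 and 1727 on Nestin-negative replicates 1, 4 and 5. That is a log2 change of -1.05 ± 0.16 (SE, adjusted p = 0.0327), and its other 2 probe sets had non-overlapping groups too. Celf5 changed by -1.01 ± 0.16 and Cpeb2 by -1.14 ± 0.17 (SE), each again without overlap. Leaving out 1 array at a time kept the call in 2, 2 and 1 of 7 fits for Celf4, Celf5 and Cpeb2, with log2 changes between -1.30 and -0.90. The list's count was 0 without Nestin-positive replicate 1 or 5 and without any 1 of the Nestin-negative replicates 1, 4 and 5. The muscleblind gene Mbnl3, a regulator of alternative splicing, differed by 0.76 ± 0.19 (SE, adjusted p = 0.101) and rose with the block (0.63 ± 0.13, adjusted p = 0.0026). With the block 4 of the 39 rose and 6 fell, where 3.58% of all genes rose and 6.40% fell. Chosen after their values were seen, the others that rose were Rbms1, Igf2bp3 and Fxr1, and the others that fell were Celf3, Nova2 and Cpeb4.

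General splicing factors of the SR and hnRNP families (37 of 40 measured, median 0.01) had 0 members called by limma in either fit and 0 at an unadjusted p under 0.05 over all 7 arrays. Among all genes 0.749% were called over all 7 arrays and 9.98% with the block, and 1598 of 11081 had an unadjusted p under 0.05 over all 7 arrays. The difference between this list and the others was not tested. The smallest p-values were those of Srsf10 (0.39 ± 0.20 SE), Hnrnpm (0.20 ± 0.11), Sf1 (-0.19 ± 0.13) and Hnrnpu (0.12 ± 0.09).

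Known regulators and target mRNAs of the 10 proteins formed a list of 16, with 13 measured and a median log2 change of -0.24 (-0.13 with the block), against -0.03 over all genes. Over all 7 arrays 2 of the 13 fell and 0 rose, where 0.578% of all genes fell. Mapt, the tau gene, whose mRNA HuD binds, had signals of 359, 232, 520.4 and 442 on Nestin-positive replicates 1, 3, 4 and 5, against 1047, 960.1 and 888 on Nestin-negative replicates 1, 4 and 5. On this brightest Mapt probe set all Nestin-positive values lay well below the Nestin-negative ones, a log2 change of -1.37 ± 0.25 (SE, adjusted p = 0.0403). Mapt probe sets with log2 changes of -1.29 and -1.11 had non-overlapping groups too. The dimmest, at -0.86, overlapped and was not called with the block (limma over probe sets, adjusted p = 0.112). Mir124a-1hg, a host transcript of miR-124, had 261, 210.4, 267 and 247 on Nestin-positive replicates 1, 3, 4 and 5, against 455, 497 and 402 on Nestin-negative replicates 1, 4 and 5. It fell by 0.87 ± 0.16 (SE, adjusted p = 0.0403), but in none of 7 fits that left out an array (adjusted p between 0.0502 and 0.186). Mapt kept its call in 2 of those 7, without Nestin-positive replicate 3 or 4, and lost it without Nestin-positive replicate 1 or 5 or any 1 of the Nestin-negative replicates 1, 4 and 5. Mature miR-124 was not measured, and the second host transcript, Mir124-2hg, overlapped between the fractions (-0.26, adjusted p = 0.643). With the block, Gabbr1, a GABA-B receptor gene whose splicing Ptbp1 controls, fell by 0.70 ± 0.12 and Gap43 by 0.37 ± 0.11 (SE, adjusted p = 0.0004 and 0.0361). This brings the count of the list to 4 lower, where 6.40% of all genes fell. The dimmer kept Gabbr1 probe sets (-0.95 and -0.31) were not called with the block (limma over probe sets, adjusted p = 0.0919 and 0.228). Nor was the Gap43 probe set in the fit over probe sets (0.0986).

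**Figure D5:**
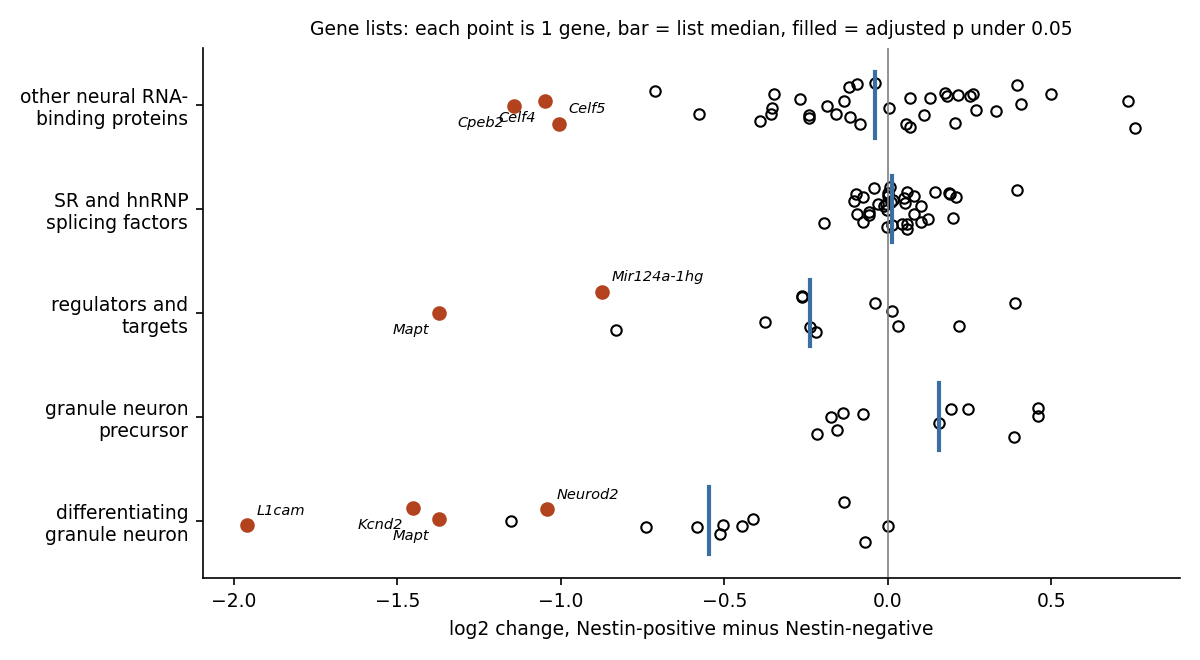
Log2 change (Nestin-positive minus Nestin-negative) of the measured genes of 5 lists; each point is 1 gene, filled and named where the adjusted p over all 7 arrays is under 0.05, and the bar is the list median. Splicing factors gather around 0.01, and differentiating granule neuron genes around -0.55.

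Markers of other cells and stages were also compared, and the blocked counts stand against 3.58% of all genes higher and 6.40% lower. Marker counts at an unadjusted p under 0.05 over all 7 arrays, here and below, stand against 1598 of 11081 genes (590 higher and 1008 lower). Of 14 measured markers of differentiating granule neurons, 4 fell over all 7 arrays (0.578% of all genes) and 11 with the block. The 4 were Kcnd2, Neurod2, L1cam and Mapt, the last already counted among the target mRNAs. Their list summed to 56254 to 65730 on Nestin-positive and 77830.4 to 87941 on Nestin-negative arrays. Of 11 measured precursor markers limma called 0 over all 7 arrays (2 at an unadjusted p under 0.05), 5 had a log2 change below 0, and the list median was 0.16. With the block 3 of the 11 rose, Mki67, Barhl1 and Atoh1 (0.38, 0.42 and 0.35), and 0 fell. Zic1, at -0.18, was lower on every Nestin-positive array than on any Nestin-negative one and was not called. Mki67 was higher on every Nestin-positive array than on any Nestin-negative one. Among all genes 9.11% had non-overlapping and lower groups, and 5.87% non-overlapping and higher ones.

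Of the 5 measured of 11 GABAergic interneuron markers, limma called 0 over all 7 arrays (3 at an unadjusted p under 0.05), and with the block Gad1 and Tfap2b fell and Pvalb rose (0.47, adjusted p = 0.0430). Gad1, an enzyme of GABA synthesis, ran from 0.952 to 67.4 on Nestin-positive arrays, under the array median on all 4, and from 269 to 434 on Nestin-negative arrays. Lhx1 and Ptf1a overlapped. The list summed to 3314 to 4083 on Nestin-positive and 4537 to 5697 on Nestin-negative arrays, most of it from Lhx1 (2649 to 3494 on Nestin-positive and 3490.04 to 4821 on Nestin-negative arrays). Gad2 and Slc32a1, the GABA transporter of vesicles, did not pass the filter. Of the 2 measured unipolar brush cell markers, Eomes did not overlap and fell with the block (-0.62, adjusted p = 0.0241), and Calb2 overlapped. Purkinje cell markers (6 of 10 measured) summed to 1664 to 2087 on Nestin-positive and 1764 to 2194 on Nestin-negative arrays, and with the block Pcp4 fell and Foxp2 and Pvalb rose. Over all 7 arrays limma called 0 unipolar brush cell and 0 Purkinje cell markers (1 and 2 at an unadjusted p under 0.05).

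Microglia markers (9 of 12 measured) summed to 291 to 1094 on Nestin-positive and 2077 to 7925 on Nestin-negative arrays, without overlap, and 2 fell over all 7 arrays and 9 with the block. Of these 9 markers, 0 reached the median of every Nestin-positive array. Lyz2, 1 of the 2, and C1qc stayed under the median of each of the 4. Both passed the filter through the 3 Nestin-negative arrays alone, so their lower Nestin-positive signal was largely set by that selection. Pericyte markers (6 of 8) summed to 398 to 1712 on Nestin-positive and 1143 to 8384 on Nestin-negative arrays, and 5 fell with the block. Meningeal fibroblast markers (5 of 7) summed to 859 to 2329 on Nestin-positive and 1669 to 7431 on Nestin-negative arrays, with a median log2 change of -1.55, and 4 fell with the block. Limma called 0 pericyte and 0 meningeal markers over all 7 arrays (5 and 4 at an unadjusted p under 0.05). Astrocyte markers (11 of 12) summed to 11582 to 37046 on Nestin-positive and 8845 to 25286 on Nestin-negative arrays. Over all 7 arrays limma called 0 of these 11 (2 at an unadjusted p under 0.05). With the block 2 of these 11 rose (Slc1a2 and Gdf10) and 4 fell (Aqp4, Aldoc, Aldh1l1 and Fabp7). The block draws nothing from Nestin-positive replicate 3, which had the highest sum (37046). Over all 7 arrays those 4 overlapped, with log2 changes from -1.24 to -0.08 (limma, adjusted p between 0.515 and 0.980). Of 6 measured oligodendrocyte lineage markers, Olig1 and Olig2 rose and Cnp fell with the block. Limma called 0 of these 6 over all 7 arrays (2 at an unadjusted p under 0.05). Of 7 measured endothelial markers limma called 0 in either fit (0 at an unadjusted p under 0.05 over all 7 arrays). The part of these cells and stages in the lower Hu and Rbfox signals was not tested.

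The genes most like a member in their log2 signal over the 7 arrays are given as a description. For Elavl3 they were Pid1 (Pearson r = 0.995), Paqr4 (0.989) and Jagn1 (0.989). For Elavl4 they were Phyhipl (0.993), 8430429K09Rik (0.970) and B230217C12Rik (0.966), and for Msi1 they were Ift22 (0.999), Lrrc59 (0.993) and Zbed3 (0.986). They are the highest among the tested genes outside the 10, and the points share the same 7 arrays.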

How the data were processed

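RNA of the sorted cells was measured on Affymetrix arrays with a single colour. The deposited values are intensity, linear and not logged, made with MAS5 per the submitters' processing notes. The sources used here do not give its version. Medians and trimmed means were computed from the values. The mean without the lowest and highest 2% of values was 500 on every array, and array medians ran from 64.6 to 94.7. MAS5 subtracts mismatch signal, which makes dim values noisy.

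Of 45101 probe sets, 64 controls were left out, and 34945 had 1 annotated gene, with symbols updated by Entrez ID (34741 matched). Log2 of the intensity was taken without a pseudocount. Probe sets at or above the array median on at least 3 arrays were kept (23558), and the brightest stood for its gene, which gave 11081 genes. Groups follow the sample titles. Tests were two-sided and used lmFit and eBayes (with intensity trend) of limma 3.58.1 under R 4.3.3, over all 7 arrays, with Benjamini-Hochberg adjustment over all genes or probe sets and a threshold of 0.05. The procedure was run on simulated data with log2 changes larger than those of the members and no correlation within pairs. That run does not bear on the blocked calls of the members. The members, lists and tests were chosen with earlier results of these data known. Named are the 10 members, from each gene list the 4 genes with the smallest p and every called one, the 3 genes most like Elavl3, Elavl4 and Msi1, and markers that check the sort or move with a member.

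Replicate numbers 1, 4 and 5 occur in both groups. Deviations from group means correlated at r = 0.71, 0.39 and 0.47 in same-numbered pairs (across genes, which are not independent) and at -0.60 to 0.19 in others. Deviations within a group sum to 0 for each gene, so a positive r with 1 array of a group lowers r with its others. The contrast with the other pairs is thus partly set by the calculation. On the basis of these correlations the numbers were treated as pairs, which no label states. The fit with the number as a fixed block draws no information from Nestin-positive replicate 3. Alternatives were this block, each array or pair left out, other normalizations, filters, a floor and an added constant, no trend and the mean of probe sets.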

Additional observations from a re-analysis of the deposited data

How the results depend on the processing

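Signs of the Elavl3, Elavl4, Rbfox1 and Rbfox2 changes were the same in all 19 alternatives, with log2 changes between -0.79 and -0.30, and their calls appeared in blocked fits alone. As the groups of these 4 genes do not overlap, blocking or leaving out an array or pair could not change the sign. The other filters, the floor and the fit without trend returned the same estimates. Most of this agreement in sign was thus set in advance. With the replicate block the count of genes called went to 1106 (83 without it), that of members to 4 and that of member probe sets to 7, and the class difference to -0.46. Blocked fits without pair 1, 4 or 5 called 718, 1412 and 904 genes, 2, 4 and 3 members and 1, 8 and 7 member probe sets, with class differences of -0.50, -0.56 and -0.35. Without the block, leaving out 1 array gave 0 to 97 genes, 0 members, 0 member probe sets and class differences from -0.60 to -0.45. The 0 came without Nestin-positive replicate 5 (1320 genes at an unadjusted p under 0.05 by limma) and without Nestin-negative replicate 4 (1158). Quantile normalization gave 22 genes, no filter on dim signal 52 and the mean of probe sets 43, with a class difference of -0.50 in the last. Limma called 0 genes with median centring (683 unadjusted) and 0 without the intensity trend (1573 unadjusted). The cause of these moves was not tested. Ptbp2's log2 change had the other sign in 5 of 19 alternatives, that of Elavl2 in 2, and those of Msi1, Msi2 and Rbfox3 in 1 each. None of these 5 genes was called in any of the 19, but the dimmer Ptbp2 probe set was among the 7 called with the block without pair 5.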

Other observations

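Rest, the repressor of neuronal genes that also keeps miR-124 loci silent, was outside the genes named by rule and was picked after its values were seen. Its brightest probe set had signals of 247, 244, 239.8 and 257 in Nestin-positive replicates 1, 3, 4 and 5, against 176, 188 and 202 in Nestin-negative replicates 1, 4 and 5. These did not overlap, and the log2 change of 0.39 ± 0.16 (SE) was called neither over all arrays (limma, adjusted p = 0.291) nor with the block (0.175). A further Rest probe set, with a log2 change of 0.65, also had higher values on every Nestin-positive array and was not called (limma over probe sets, adjusted p = 0.516). The remaining Rest probe sets did not pass the filter on dim signal, and their groups overlapped. Among all genes, 5.87% had non-overlapping and higher groups.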
